A study of Mus musculus with 9 samples.

Results

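The growth factor genes Gdf9, Bmp15, Bmp6 and Fgf8, whose products the oocyte secretes, and the receptor gene Kit were described across 9 single mouse oocytes. The genes were taken by symbol from the array rows that carry exactly 1 gene symbol. Each of the 5 genes had 1 such row, and they are 5 of the 19938 genes that could be named and tested. The study compared 3 ways of preparing RNA from 1 oocyte for whole-transcript arrays, with 3 oocytes for each. For 3 oocytes the lysate made in NuGEN direct lysis buffer was amplified without purification (direct lysis). In the other 6 the RNA was purified on columns, 3 with the Arcturus PicoPure kit and 3 with the Qiagen RNeasy Mini kit. All oocytes were unfertilized metaphase II eggs of ICR females, an outbred stock, aged 2 months. Ovulation was induced in all females (10 IU PMSG, then 10 IU hCG after 46 hours), so no group represents an unstimulated ovary. Each condition drew on 3 mice that gave 1 to 3 cells apiece, and the labels do not tie an oocyte to its mouse. Oocytes of a group can thus come from 1 animal, and the p-values reflect only how these arrays, each of 1 oocyte, varied.

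GDF9 and BMP15 are members of the transforming growth factor beta family that the oocyte releases to the surrounding granulosa and cumulus cells. They are made as precursors, cleaved by proprotein convertases, and signal through pairs of serine/threonine kinase receptors to SMAD proteins. BMP6 is a related ligand, and FGF8 a fibroblast growth factor that acts with BMP15 on cumulus cell glycolysis in the mouse. KIT works in the opposite direction: it is the oocyte's own receptor tyrosine kinase and is activated by KIT ligand from granulosa cells. The arrays measure RNA, and the amount of secreted or surface protein was not measured.

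The stretch around the start site, 250 bases before it to 50 after it, was available from RefSeq (build GRCm38.p6) for 3 of the 5 genes, Bmp15, Bmp6 and Kit. These are shown because the promoter is a feature that took no part in choosing the genes, and because transcripts of known regulators of oocyte promoters were measured on the same arrays. Capitals mark matches to the core letters bound by the oocyte homeobox protein NOBOX (searched as TAATTA, then as TAATTG, then as TAGTTG) and to CANNTG, the E-box bound by helix-loop-helix proteins such as FIGLA. Both strands were searched, and no match of one motif overlapped one of the other.

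Bmp15 (chrX:6320675-6320974, minus strand): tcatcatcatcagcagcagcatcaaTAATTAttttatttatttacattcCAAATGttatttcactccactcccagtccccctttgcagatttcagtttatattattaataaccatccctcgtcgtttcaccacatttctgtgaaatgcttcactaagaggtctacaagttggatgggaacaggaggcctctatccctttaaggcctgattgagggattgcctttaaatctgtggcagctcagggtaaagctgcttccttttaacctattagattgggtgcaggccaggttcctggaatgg
Bmp6 (chr13:38345466-38345765, plus strand): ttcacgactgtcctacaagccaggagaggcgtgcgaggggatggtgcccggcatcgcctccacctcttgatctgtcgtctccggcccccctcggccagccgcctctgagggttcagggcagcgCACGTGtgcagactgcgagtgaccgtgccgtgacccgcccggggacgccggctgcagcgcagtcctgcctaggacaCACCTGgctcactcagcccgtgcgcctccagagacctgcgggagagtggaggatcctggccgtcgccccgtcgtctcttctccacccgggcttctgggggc
Kit (chr5:75574737-75575036, plus strand): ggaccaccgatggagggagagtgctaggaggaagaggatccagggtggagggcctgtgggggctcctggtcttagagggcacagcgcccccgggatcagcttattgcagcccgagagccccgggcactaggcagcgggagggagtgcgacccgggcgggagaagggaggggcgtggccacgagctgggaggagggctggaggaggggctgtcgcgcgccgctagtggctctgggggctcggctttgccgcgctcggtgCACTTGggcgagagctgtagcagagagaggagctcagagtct

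The Bmp15 window differed from the other two in base composition. It held 41.7% G and C and 2 CpG dinucleotides, whereas the Bmp6 window held 69.3% and 27 and the Kit window 69.0% and 20. The median over 32851 windows was 52.7% G and C and 7 CpG dinucleotides. The Bmp15 window had 1 NOBOX core, which read TAATTA, and 1 E-box, which read CAAATG. The NOBOX letters were in 17.9% of all windows of this length and E-box letters in 72.3%. The Bmp6 window had 2 E-boxes, the first reading CACGTG and the other reading CACCTG. The Kit window had 1, reading CACTTG, and neither held the NOBOX letters. Kit has 2 annotated windows, which overlap, and the first is shown. These matches are letters and not measured binding.

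The values are the authors' normalized log2 expression values, so a difference of 1 unit is a 2-fold change in array signal, and array medians lay between 7.12 and 7.24. As background, each array's 95th percentile over 1231 olfactory, vomeronasal and taste receptor genes was used. That level was 7.23 to 7.29 on direct lysis arrays, 7.19 to 7.26 on PicoPure arrays and 7.27 to 7.48 on RNeasy arrays. It replaces no detection test. Egg markers were present throughout: 11 of 11 measured oocyte markers lay above background on all 9 arrays, with a mean level per array of 12.33 to 12.44 in direct lysis, 12.34 to 12.38 in PicoPure and 12.40 to 12.41 in RNeasy. Of 18 measured cumulus and granulosa markers, 2 (Nr5a2 and Foxl2) exceeded background in every oocyte and 12 in no oocyte. Their mean level per array was 6.81 to 6.87 in direct lysis, 6.69 to 6.81 in PicoPure and 6.73 to 7.08 in RNeasy. Their summed linear signal was 2935 to 4325, 3039 to 3622 and 3011 to 3246 in the same order. Nr5a2 had 9.30 to 11.32 over the 9 oocytes and weighs heavily in these sums, and Foxl2 had 7.71 to 8.27. The granulosa and cumulus genes Fshr, Amh, Has2 and Cyp11a1 were above background on no array.

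All 5 genes were above background on all 9 arrays, as were 43.1% of all genes. Gdf9, needed for follicles to grow past the primary stage, had 12.66, 12.63 and 12.69 in direct lysis, 12.68, 12.80 and 12.68 in PicoPure and 12.66, 12.69 and 12.70 in RNeasy. The groups overlapped, and PicoPure replicate 2 was above the other 8 oocytes. Bmp15, the X-linked partner of Gdf9, had 12.86, 12.94 and 12.89 in direct lysis, 12.82, 12.83 and 12.84 in PicoPure and 12.83, 12.84 and 12.84 in RNeasy. All 3 direct lysis values were above all 6 values from purified RNA, by a margin smaller than the range within direct lysis.

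Bmp6, another ligand of the BMP branch, had 10.56, 10.80 and 10.88 in direct lysis, 10.15, 10.67 and 10.75 in PicoPure and 10.23, 10.08 and 10.08 in RNeasy. Every direct lysis value was above every RNeasy value, while PicoPure replicate 1 lay with RNeasy and the other two PicoPure oocytes with direct lysis. Fgf8 lay nearest to background, between 0.81 and 1.41 units above it. It had 8.29, 8.59 and 8.58 in direct lysis, 8.40, 8.45 and 8.30 in PicoPure and 8.72, 8.67 and 8.29 in RNeasy, and all 3 groups overlapped. With the 99th percentile of the receptor genes as the level, Fgf8 was above it on 8 of 9 arrays and the other members on 9. Kit, the receptor, had 11.53, 11.49 and 11.49 in direct lysis, 11.48, 11.57 and 11.59 in PicoPure and 11.45, 11.32 and 11.30 in RNeasy. All 3 RNeasy values of Kit were below all values of the other groups.

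**Figure D1:**
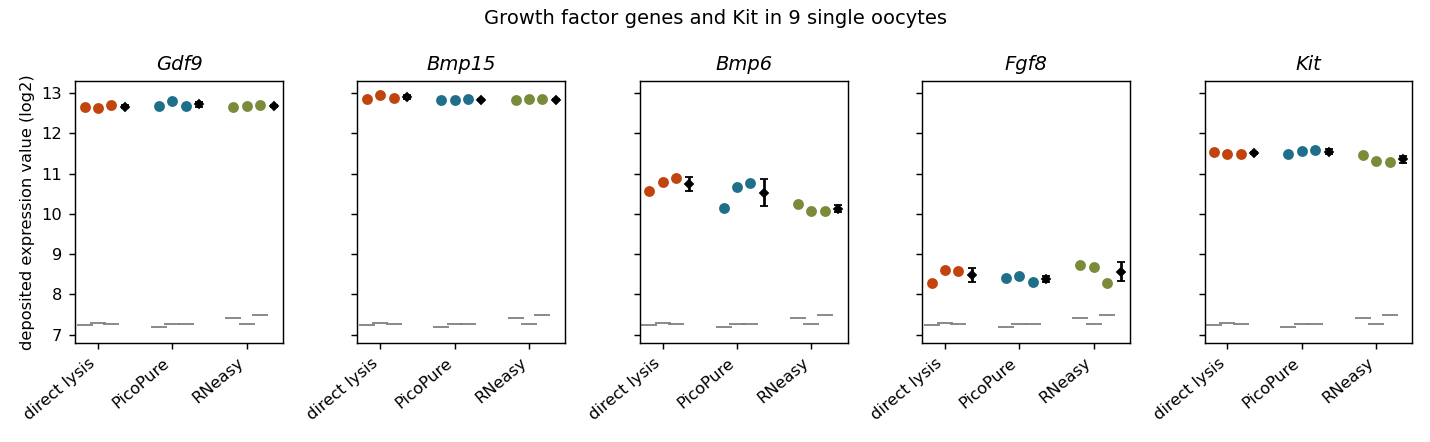
Deposited log2 expression value (vertical axis) of each gene in each oocyte (coloured points) by preparation, with the group mean and SD (black diamonds, n = 3) and each array's background level (grey dashes). All points lie above background, and Fgf8 lies nearest to it, with a lowest value of 8.29.

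The order of the preparations differed from gene to gene. Gdf9 averaged 12.66 ± 0.034 in direct lysis, 12.72 ± 0.067 in PicoPure and 12.68 ± 0.020 in RNeasy (SD, n = 3 each, as in the following means). Bmp15 averaged 12.90 ± 0.045 in direct lysis, 12.83 ± 0.011 in PicoPure and 12.84 ± 0.011 in RNeasy. For neither gene did neighbours in this order pass the test. Bmp6 averaged 10.75 ± 0.17 in direct lysis, 10.53 ± 0.33 in PicoPure and 10.13 ± 0.089 in RNeasy. Direct lysis and PicoPure overlapped, as did PicoPure and RNeasy. Fgf8 averaged 8.49 ± 0.17 in direct lysis, 8.38 ± 0.077 in PicoPure and 8.56 ± 0.24 in RNeasy, in order RNeasy, direct lysis and PicoPure with overlap throughout. Kit averaged 11.50 ± 0.024 in direct lysis, 11.55 ± 0.060 in PicoPure and 11.35 ± 0.084 in RNeasy, where only RNeasy stood apart from the others by its range.

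The comparison of crude lysate with purified RNA bears on whether the column step changes what is read from 1 cell. Both sides hold different oocytes, so that step cannot be told apart from differences between cells, animals or other steps of the preparations. None of the 5 genes passed the test between direct lysis and the mean of both kits (limma, Benjamini-Hochberg over all 19938 genes, two-sided, threshold 0.05), against 1.01% of all genes (0.341% higher and 0.667% lower in direct lysis). At an unadjusted p under 0.05 there was 1 of the 5 genes, against 14.2% of all genes. The arrays of both sides did not overlap for 1 of the 5 genes, Bmp15, against 8.02% of all genes. Bmp6 showed the largest difference, 10.75 ± 0.17 in direct lysis (n = 3) against 10.33 ± 0.31 in purified RNA (n = 6), or 0.42 ± 0.14 SE, a 1.34-fold higher value with a 95% interval of 1.06 to 1.68 (limma, adjusted p = 0.25). Bmp15 differed by 0.060 ± 0.048 SE and Kit by 0.051 ± 0.059. Gdf9 differed by -0.042 ± 0.053 SE and Fgf8 by 0.018 ± 0.12. The intervals of the fold in signal were 0.965 to 1.13 for Bmp15, 0.943 to 1.14 for Kit, 0.892 to 1.06 for Gdf9 and 0.841 to 1.22 for Fgf8. Only 22 of 35556 rows had a mean between 13 and 14, so Gdf9 and Bmp15 lie near the top of the scale. Whether folds in signal there equal folds in RNA was not tested. The median difference of the 5 genes was 0.051, against 0.0022 over all genes.

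Against each kit alone the same direct lysis oocytes were used, so these comparisons are not independent of the first or of each other. Against RNeasy, 3 of the 5 genes did not overlap (Bmp15, Bmp6 and Kit), against 16.9% of all genes. None passed the test, against 0.436% of all genes, and 1 had an unadjusted p under 0.05, against 13.4%. Bmp6 was 1.54-fold as high in direct lysis as in RNeasy, with an interval of 1.18 to 2.0 (difference 0.62 ± 0.17 SE, limma, unadjusted p = 0.00586, adjusted p = 0.184). Over the 17 alternatives tried for this value its adjusted p ran between 0.0962 and 0.348 and the difference between 0.55 and 0.75. Kit differed by 0.15 ± 0.068 SE, with a fold interval of 0.993 to 1.24. Against PicoPure, 1 gene did not overlap (Bmp15), against 16.6% of all genes. None passed the test, against 0.597% of all genes (0.426% lower in direct lysis), and 0 of the 5 had an unadjusted p under 0.05, against 12.3%. Bmp6 differed there by 0.22 ± 0.17 SE, with a fold interval of 0.895 to 1.52, and by 0.033 without PicoPure replicate 1.

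The column kits were then set against each other, PicoPure over RNeasy. None of the 5 genes passed (limma), against 0.0602% of all genes (0.0401% higher in PicoPure), and the arrays of 1, Kit, did not overlap, against 13.9% of all genes. An unadjusted p under 0.05 was found for 2 genes, Bmp6 and Kit, against 7.98% of all genes. Kit was 1.14-fold as high in PicoPure as in RNeasy, with an interval of 1.03 to 1.27 (difference 0.19 ± 0.068 SE, limma, adjusted p = 0.536). Bmp6 was 1.32-fold as high, with an interval of 1.01 to 1.72 (0.40 ± 0.17 SE, adjusted p = 0.611), and its difference was 0.58 without PicoPure replicate 1. Fgf8 differed by -0.18 ± 0.13 SE, Gdf9 by 0.037 ± 0.061 and Bmp15 by -0.0039 ± 0.056. In limma's moderated F over all 3 preparations at once, 0 of the 5 genes passed, against 0.637% of all genes. An unadjusted p under 0.05 was found there for 1 gene, Bmp6 (limma, adjusted p = 0.272), against 12.8% of all genes.

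**Figure D2:**
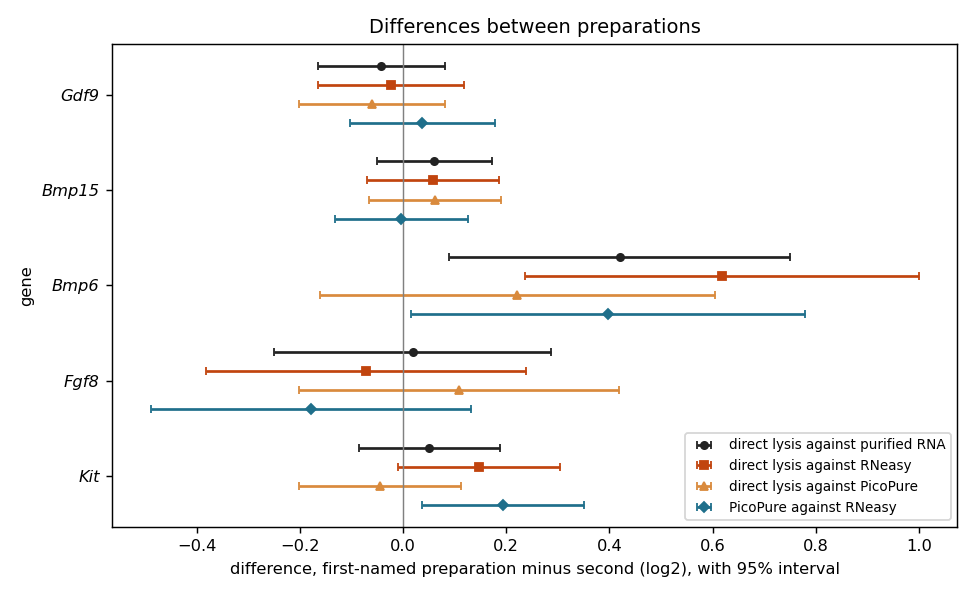
Difference between preparations on the log2 scale (horizontal axis, first-named minus second) for each gene, with the 95% interval of the limma fit over 9 arrays. The Gdf9 and Bmp15 intervals lie between -0.20 and 0.19 in all 4 comparisons, and those of Bmp6 reach from -0.16 to 1.00.

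The 5 genes differed in how far single oocytes spread. The residual SD within preparations was 0.027 log2 units for Bmp15, 0.045 for Gdf9, 0.061 for Kit, 0.17 for Fgf8 and 0.22 for Bmp6. Over the 8597 genes above background on all arrays the median was 0.19. The spread on these arrays depended on level. The median residual SD was 0.28 for genes with a mean between 8 and 9, 0.26 between 10 and 11, 0.15 between 11 and 12, and 0.077 between 12 and 13. Set against genes within 0.25 units of its own level, Kit lay at percentile 5.65 of 619 genes, whose median was 0.15. Bmp15 lay at percentile 12.2 of 49 genes, Fgf8 at 24.3 of 1146, Gdf9 at 29.2 of 96 and Bmp6 at 36.2 of 685. After a further quantile normalization the residual SD of Bmp15 was 0.042, and after median centring it was 0.047.

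Exact ties occurred between arrays. Bmp15 had the identical deposited value, 12.84424, in PicoPure replicate 3 and in RNeasy replicates 2 and 3. Gdf9 had 12.68277 in PicoPure replicates 1 and 3, and Kit had 11.48818 in direct lysis replicates 2 and 3. Such ties were found in 26.6% of rows with a mean between 12 and 13 and in 24.6% of those between 11 and 12. Bmp6 and Fgf8 had none. The SDs of Bmp15, Gdf9 and Kit include these ties, and how the ties and the level bear on the small SDs was not tested.

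**Figure D3:**
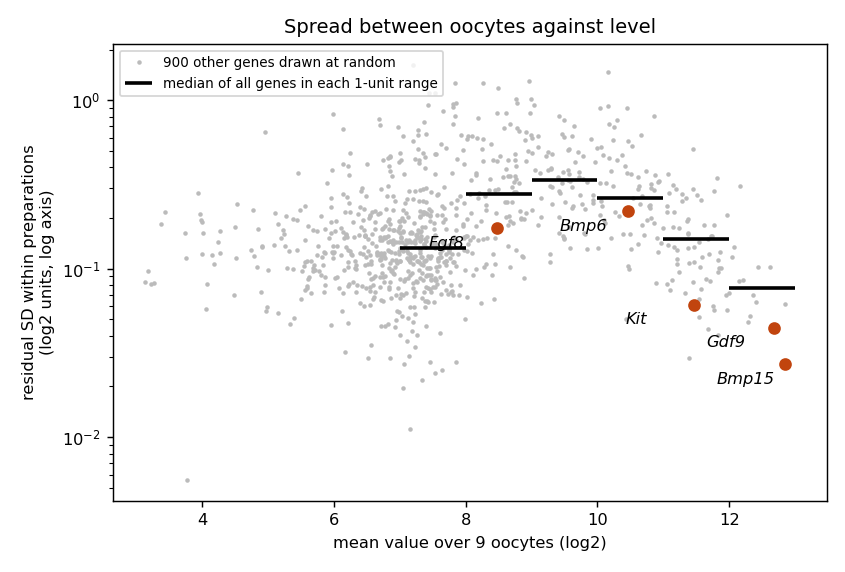
Residual SD within preparations (vertical axis, log scale) against the mean value over 9 oocytes (horizontal axis, log2) for the 5 genes (red), a random draw of other genes (grey) and the median of all genes in each 1-unit range (black bars). All 5 genes lie under the median of their range.

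Across the 9 oocytes no pair among the 5 genes passed after adjustment (10 pairs, exact permutation test of Pearson's r over 362880 pairings, two-sided). The points share the arrays' normalization and, within a preparation, the kit. Bmp6 and Kit had the strongest relation, with r = 0.75 (exact permutation p = 0.0156, adjusted p = 0.156) and a Spearman's rho of 0.73 (exact permutation p = 0.0313, adjusted p = 0.313). Without the 2 oocytes farthest from the median of Bmp6 it was r = 0.47, and after subtracting preparation means r = 0.57. Each preparation holds 3 oocytes, too few for a value of its own. Bmp15 and Bmp6 had r = 0.61 (exact permutation p = 0.0542, adjusted p = 0.271), rho = 0.56 (exact permutation p = 0.128, adjusted p = 0.641), and r = 0.30 without the 2 farthest oocytes. Gdf9 and Bmp15, which act together on granulosa cells, had r = -0.48 (exact permutation p = 0.176, adjusted p = 0.588), rho = -0.19 (exact permutation p = 0.631, adjusted p = 0.805), and r = 0.31 without the 2 farthest oocytes, so the sign rested on those. For the other 7 pairs r lay between -0.25 and 0.22.

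**Figure D4:**
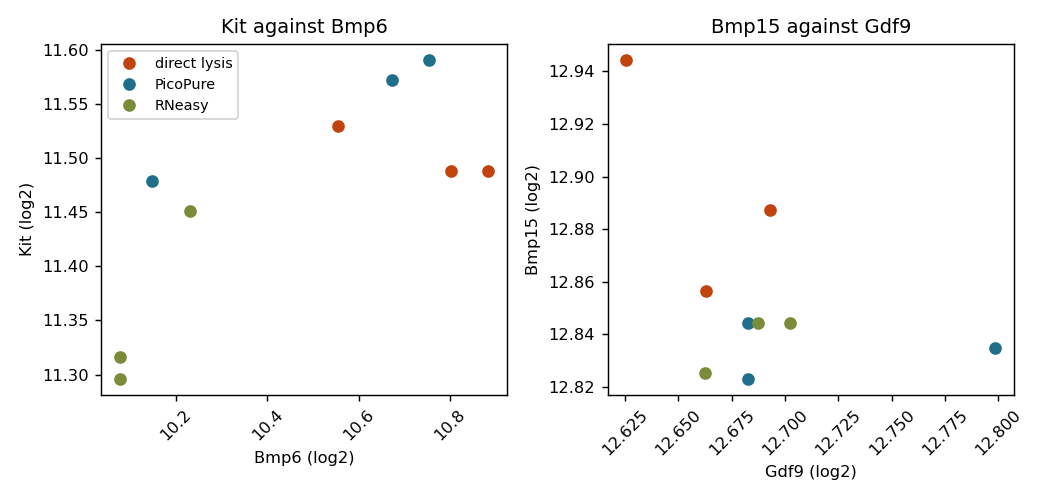
Kit against Bmp6 and Bmp15 against Gdf9 in 9 oocytes, coloured by preparation, on log2 axes. The 3 RNeasy oocytes have the lowest Kit values, 11.30 to 11.45, and PicoPure replicate 2 has the highest Gdf9 value, 12.80.

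The genes around these factors were followed through 11 lists that named 169 genes, of which 160 were measured. The counts of genes above background on all arrays in the following lists stand against 43.1% of all genes. The lists were chosen with earlier results of these data known, so the shares that follow are a description only. Of the 160 genes, 3 passed the test between direct lysis and purified RNA, 1.88% against 1.01% of all genes. Against PicoPure 2 passed, 1.25% against 0.597% of all genes. Against RNeasy 0 passed, against 0.436% of all genes, and between the kits 0, against 0.0602%. The medians of the lists lay between -0.048 and 0.12 for direct lysis against purified RNA, against 0.0022 over all genes.

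Other ligands of the family were mostly at background. Of 19 TGF-beta family ligands, 5 exceeded background in every oocyte and 10 in no oocyte. Those above included Bmp5, a bone morphogenetic protein with 11.65 to 11.99 over the 9 oocytes, and Tgfb2, with 11.35 to 11.74. Tgfb3 had 8.30 to 9.14, and Gdf10 and Bmp7 lay close to background. The granulosa ligand genes Inha, Inhbb and Amh were above it on no array, and Inhba, another activin subunit gene, on 1, where it had 8.48. No ligand passed in any comparison.

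Transcripts of some receptors of these ligands, but not all, were above background in every oocyte. Of 16 TGF-beta and BMP receptor genes, 11 were above background on all arrays. Bmpr2, a type II receptor gene of this family, was lower in crude lysate. It had 11.04, 11.02 and 11.14 in direct lysis against 11.43 to 11.64 in purified RNA, with no overlap. The difference was -0.49 ± 0.072 SE (limma, adjusted p = 0.0276), the only call among the receptors. The call was lost in 9 of 16 alternatives, over which the adjusted p ran between 0.0217 and 0.0896. Among these were the fits without any one direct lysis oocyte (0.0688, 0.0705 and 0.0516 without replicates 1, 2 and 3), without RNeasy replicate 1 or 2 (0.0694 and 0.0747) and without PicoPure replicate 1 or 2 (0.0790 and 0.0832). With a further quantile normalization the difference was -0.38 (adjusted p = 0.0693). The type I receptors Bmpr1b, with 11.11 to 11.50, and Bmpr1a, with 9.55 to 10.33, did not pass. The TGF-beta coreceptor Tgfbr3 and the activin receptors Acvr1b and Acvr2a lay lower over background, with 8.29 to 9.12, 8.16 to 9.97 and 8.11 to 9.51. Acvr1, a type I receptor of BMP6, was above background on no array, and Tgfbr1, the type I receptor of GDF9, on 5 of 9.

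Downstream, 9 of 13 SMAD and SMAD-regulating genes were above background on all arrays and none passed. Smad2, a carrier of the GDF9 branch, had 11.88 to 12.10, Smad3 10.78 to 11.59 and the common partner Smad4 10.56 to 11.35. The ubiquitin ligase genes Smurf2 and Smurf1 had 11.85 to 12.29 and 9.66 to 10.95, and the corepressor gene Ski 9.88 to 10.51. Smad5 and Smad9, of the BMP branch, averaged 7.93 and 7.66 over the 9 oocytes. Smad6, an inhibitory SMAD, was above background on no array, and Smad7 on 1. Of 12 extracellular antagonists and related genes, 5 were above background on all arrays, and of these Fstl3, an activin binder, had 8.20 to 8.69. Fst, Sostdc1, Grem1 and Chrd lay within 0.13 units of background on at least 1 array. Bambi, a pseudoreceptor, was called higher in direct lysis, with 7.81, 7.90 and 7.87 against 7.44 to 7.56 in purified RNA (difference 0.36 ± 0.056 SE, limma, adjusted p = 0.0326). It lay close to background, above it on 8 of 9 arrays. Its call was lost in 10 of 16 alternatives, and its adjusted p over all 16 ran between 0.0196 and 0.0979. Among the 10 were all 9 fits that leave out 1 oocyte (0.0524 to 0.0911). Furin, a convertase that cleaves such precursors, had 9.16 to 10.72, and Pcsk5 was above background on no array. Of 7 convertases 2 were above it on all arrays, Furin and Pcsk4.

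On the FGF side, 8 of 21 other FGF ligands were above background on all arrays. Fgf9 had 8.65 to 9.90, Fgf1 8.08 to 10.74, Fgf10 7.87 to 9.01 and Fgf18 7.84 to 9.74, while Fgf15 and Fgf17 lay close to background. No ligand passed. Of 16 FGF receptor and feedback genes 11 were above background on all arrays. The feedback inhibitor Spry4 had 11.51 to 12.08, Spred2 9.64 to 10.72 and Spred1 9.25 to 10.44, and Il17rd, Spry1 and Frs3 had 9.03 to 9.89, 8.20 to 8.77 and 8.05 to 8.5. Fgfr2, a receptor gene, had 8.65, 7.97 and 8.31 in direct lysis against 9.78, 9.45 and 9.33 in PicoPure. It was lower in direct lysis by 1.21 on the log2 scale (SE 0.20, limma, adjusted p = 0.0497). Against RNeasy the difference was -0.66 (limma, adjusted p = 0.224) and against purified RNA -0.93 (limma, adjusted p = 0.0572), both without overlap and not called. The call against PicoPure was lost in 14 of 17 alternatives, and its adjusted p over all 17 ran between 0.0345 and 0.163. Among the 14 were the fits without RNeasy replicates 1, 2 and 3 (0.0957, 0.0920 and 0.0760). So were those without PicoPure replicates 1, 2 and 3 (0.155, 0.157 and 0.105) and without direct lysis replicates 2 and 3 (0.0836 and 0.101).

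Kit stood alone in its pair with its ligand and in its class. Kitl, the ligand gene expressed by granulosa cells, had 5.88 to 6.40 and was above background on no array. The related receptor genes Pdgfra, Csf1r and Flt3 were above background on no array and Pdgfrb on 1. Of 6 measured mast cell markers, which mark another cell type rich in KIT, 5 were above background on no array and Hdc on 2. Their mean level per array was 6.0 to 6.09 in direct lysis, 5.95 to 6.03 in PicoPure and 5.98 to 6.07 in RNeasy. Of 20 measured genes for KIT ligand and signalling, 18 were above background on all arrays. The tyrosine kinase gene Fyn had 11.61 to 12.05, the phosphatase gene Ptpn11 11.40 to 12.01, Pdpk1 10.08 to 10.95, the adaptor gene Gab2 9.13 to 10.90, and Foxo3, the transcription factor that AKT inactivates in growing oocytes, 9.58 to 9.82.

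Pik3r1, a regulatory subunit of the lipid kinase that KIT recruits, fell in direct lysis. It had 11.01, 10.99 and 11.11 in direct lysis against 11.38 to 11.49 in purified RNA, with no overlap (difference -0.39 ± 0.052 SE, limma, adjusted p = 0.0206). Against PicoPure alone the difference was -0.43 ± 0.060 SE (adjusted p = 0.0310). The first call was lost in 7 of 16 alternatives, and its adjusted p over all 16 ran between 0.0117 and 0.0888. The 7 were a further quantile normalization, the replicate number as a block (0.0888) and fits that leave out 1 oocyte. Those fits were without RNeasy replicate 1 or 2 (0.0667 and 0.0524), PicoPure replicate 1 or 2 (0.0567 and 0.0666) or direct lysis replicate 2 (0.0550). The call against PicoPure was lost in 11 of 17, and its adjusted p over all 17 ran between 0.0170 and 0.149. Among the 11 were the fits without RNeasy replicates 1, 2 and 3 (0.0821, 0.0688 and 0.0665). So were those without PicoPure replicates 1, 2 and 3 (0.120, 0.136 and 0.0889) and direct lysis replicates 1 and 2 (0.0649 and 0.0630).

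**Figure D5:**
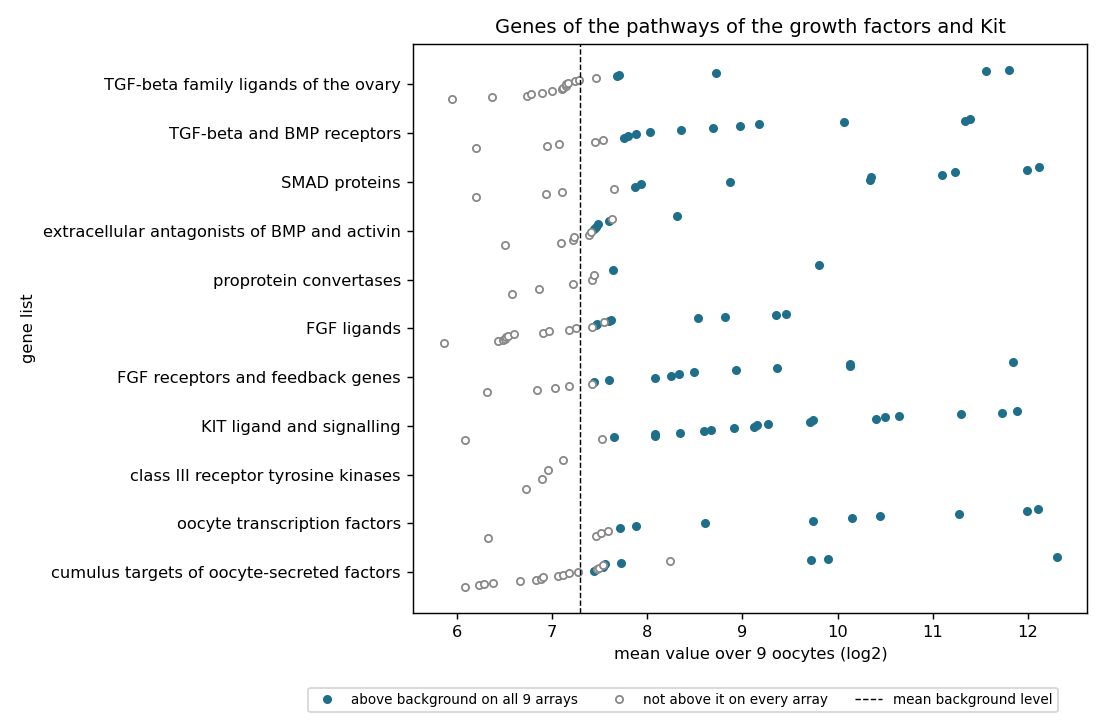
Mean value over 9 oocytes (horizontal axis, log2) of each measured gene of 11 lists, filled where the gene was above background on all 9 arrays, with the mean background level dashed. Of 20 KIT signalling genes 18 are filled, and of 4 related receptor genes 0 are.

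Among the 13 genes listed as oocyte transcription factors, 9 were above background on all arrays and none passed. The 9 include Foxl2, which was also counted among the cumulus and granulosa markers. Nobox, whose product is known to bind letters such as those searched for in the promoters, had 11.78 to 12.28. Lhx8 had 9.85 to 10.31, Pou5f1 11.52 to 12.23, Nr6a1 10.22 to 10.67 and Tbp 11.10 to 11.44. Figla, an E-box factor, averaged 7.52 and was above background on 8 arrays. Of 23 measured genes that oocyte-secreted factors regulate in cumulus cells, 7 exceeded background in every oocyte and 8 in no oocyte. Hmgcs1, Sc5d and Mvk of cholesterol synthesis had 12.23 to 12.41, 8.82 to 11.06 and 7.60 to 7.86, and Pfkp of glycolysis 8.97 to 10.07. Nppc and Egfr were also above background on all 9 arrays but lay close to it, with 7.38 to 7.70 and 7.49 to 7.58. Has2, Vcan and Npr2 were above background on no array, and Ptgs2 and Tnfaip6 on 1. None of these genes passed.

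The genes most alike to each member in pattern were taken as the 3 with the largest Pearson's r over the 9 arrays among 8596 other genes above background throughout. Since they are the extreme of so many, their r is a description only. For Kit they were Gins2 (r = 0.98), Fhod3 (0.96) and Cstf1 (0.94), and 12 genes had r over 0.9. For Bmp6 they were Arhgap26 (0.97), Gltp (0.93) and Brd3 (0.91), and 3 genes had r over 0.9. For Bmp15 they were Arhgap9 (0.97), Amdhd2 (0.96) and Chtf8 (0.96), of 19 genes over 0.9. For Gdf9 they were Xkr8 (0.95), Aak1 (0.94) and Shroom2 (0.89), and for Fgf8 Frg1 (0.91), Tmem132c (0.91) and Suclg2 (0.87), with 2 genes over 0.9 each. No member was among the 3 of another.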

How the data were processed

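RNA of 9 single metaphase II oocytes was hybridised to Affymetrix Mouse Gene 1.0 ST arrays after NuGEN Ovation One-Direct amplification, per the labels' protocols. The deposited table holds 1 log2 expression value for each of 35556 rows and 9 arrays, with 0 missing. Per the submitters' processing notes, the authors used GCOS, GCRMA and Affymetrix Expression Console, with no versions. The log2 scale was read from the values (2.41 to 13.90), and no source used here gives the genome build of the rows. No scanner files were used, so background correction and normalization could not be repeated. The number of arrays limits the precision.

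Gene symbols came from GEO's platform annotation (21789 with 1 symbol, 1621 with several, 12146 with none), keeping for each gene the row with the largest mean, 19938 genes in all, of which 19856 matched RefSeq by Entrez identifier.

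Groups came from the sample titles. limma 3.58.1 in R 4.3.3 (lmFit, eBayes) was fitted once over all arrays and 3 groups, with 6 residual degrees of freedom, and tested on simulated data first. Correlations and figures used Python 3.11.15. Named genes were the 5 members, from each list every gene past the threshold and up to 6 farthest above background, and 3 genes most alike to each member. The members and lists were chosen with earlier results of these data known. Alternatives were other normalizations, raised low values, a filter (above background on 3 arrays), moderation, row choice, a replicate block, subsets of groups and leaving out each oocyte.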

Additional observations from a re-analysis of the deposited data

Results flagged for a closer look

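Gdf9 in PicoPure replicate 2, at 12.80, stood apart from the other 5 oocytes with purified RNA, which lay between 12.66 and 12.70. Its gap to the nearest of them was 0.708 of the whole range of the 6, above Dixon's 95% critical value of 0.625. The 5 genes were each examined at both ends, and chance alone marks about 1 group in 20. Without this oocyte the difference between PicoPure and RNeasy for Gdf9 was -0.0011. The cause was not tested.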

How the results depend on the processing

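Of 335 differences of the 5 genes recomputed under the alternatives, 0 passed the threshold and 13 changed sign, in 6 of 20 results, all with small differences. With a further quantile normalization the difference was 0.0050 for Fgf8 between direct lysis and RNeasy, 0.032 for Kit between direct lysis and PicoPure and 0.013 for Bmp15 between PicoPure and RNeasy. With median centring it was 0.041 for that Bmp15 comparison and 0.0031 for Gdf9 between direct lysis and RNeasy. Leaving out 1 oocyte gave -0.21 to 0.027 for Fgf8 between direct lysis and RNeasy and -0.049 to 0.12 between direct lysis and purified RNA. Between PicoPure and RNeasy it gave -0.010 to 0.0016 for Bmp15 and -0.0011 to 0.057 for Gdf9. The cause was not tested.

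The labels do not say whether the replicate numbers pair the samples. Deviations of same-numbered oocytes correlated between -0.089 and 0.13. Differently numbered pairs were not examined, so these values cannot decide whether a pairing exists. With the replicate block, limma called 25 genes between direct lysis and purified RNA (201 without it), 15 against RNeasy (87), 17 against PicoPure (119), 0 between the kits (12, with 1549 at an unadjusted p under 0.05) and 14 in the test of 3 preparations (127). Fits of only the 2 groups compared called 3 genes for direct lysis against RNeasy, 0 against PicoPure (2158 unadjusted) and 0 between the kits (1730 unadjusted). With trend and robust moderation 0 were called between the kits (1595 unadjusted). Leaving out 1 oocyte gave 24 to 232 calls for direct lysis against purified RNA, 3 to 95 against RNeasy, 14 to 123 against PicoPure, 0 to 15 between the kits and 4 to 96 in the test of 3 preparations. Calls at 0 between the kits had 1439 genes at an unadjusted p under 0.05 without RNeasy replicate 1, 1351 without PicoPure replicate 2 and 1259 without PicoPure replicate 3. No pair of the 5 genes passed under any alternative. Fgf8 lies nearest to background, where the unknown effect of the authors' background correction limits what its values can show.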
